A study of Mus musculus with 6 samples.

Results

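Batf, Irf4, Prdm1, Bhlhe40, Id2 and Id3 encode 6 transcriptional regulators that shape effector regulatory T cells (Treg cells, the CD4 T cells defined by the transcription factor Foxp3). They were taken by gene symbol from a table of 32090 genes measured in sorted mouse colonic Treg cells, and all 6 were found once and passed the filter on low counts that left 12557 genes for testing. In the WT group, with the receptor for interleukin-23 intact, 5 of them were among the more abundant genes and Id3 was detected at few counts. In the KO group, designed to lack that receptor in Treg cells, Id2 was higher in each library than in any WT library and Irf4 averaged lower, but none of the 6 passed the test over all genes.

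BATF is a basic leucine zipper protein that pairs with JUN proteins and binds composite DNA elements together with IRF4, a factor whose amount follows the strength of T cell receptor signalling. Both are required in mice for Treg cells to acquire an effector state in tissues, and IRF4 promotes Prdm1, which encodes the zinc finger repressor BLIMP-1, a marker of effector Treg cells at mucosal sites and a regulator of Il10. BHLHE40 is a repressor that binds E-box DNA and restrains Il10 in helper T cells, while ID2 and ID3 have no DNA-binding domain and act by trapping the E proteins (encoded by Tcf3, Tcf4 and Tcf12). In T cells Id3 is associated with naive and resting states and Id2 with effector states.

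RNA was sequenced in bulk from live CD45+ CD4+ Foxp3+ cells sorted from the colonic lamina propria of untreated C57/BL6 mice. The WT group (WT1, WT2, WT3) carried Foxp3YFP-Cre, a YFP-tagged Cre recombinase at the Foxp3 gene, and the KO group (KO1, KO2, KO3) had this Cre and also floxed alleles of Il23r, a receptor chain for interleukin-23, so that both groups bear the Cre. By design, deletion is directed to cells that express Foxp3. Each library pooled cells of at least 5 mice, and no age is given in the labels. The study compared Treg cells with and without the receptor.

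Total estimated counts ranged from 9680503 to 20654340 per library. RNA integrity numbers were 7.9 to 8.8 except in WT2, where it was 5. WT1 and KO1 shared a sort batch, WT2 and WT3 shared another, and KO2 and KO3 each had one to itself. The closest pair of libraries was KO2 and KO3 (root-mean-square difference of 0.588 in log2 CPM, where CPM is the count relative to the TMM-scaled library size, against 1.06 to 1.65 in the other pairs), although they differed by more than sampling noise. Il23r was at 13.6 to 38.3 CPM in WT and at 4.99 and 8.96 CPM in KO2 and KO3, while the library labelled KO1 had 18.4 CPM, inside the WT range. Every direction given below for KO thus includes 1 library whose Il23r count does not separate it from WT. The log2 fold change of Il23r, KO over WT, was -1.14, which did not pass (edgeR's quasi-likelihood test over all genes, adjusted p = 0.573). Xist was at or below 0.284 CPM in WT and between 1182 and 3472 CPM in KO, which means that sex and genotype cannot be told apart for any gene here. Transcripts of the Y chromosome, summed over Uty, Kdm5d, Eif2s3y and Ddx3y, came to 264 to 475 CPM in WT, 2.19 CPM in KO2, 72.8 CPM in KO3 and 179 CPM in the library labelled KO1, so that 2 KO pools carried both Xist and Y-linked transcripts. Xist was the 1 of 5 sex-linked genes tested that passed an adjusted p of 0.05, the threshold used throughout. The Treg and CD4 T cell markers were present in all 6 libraries, with Foxp3 at 567 to 1603 CPM and Ctla4 at 2420 to 3106 CPM, and 0 of 7 tested passed.

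To place the 6 genes against each other, each level was divided by the length of the gene's longest RefSeq-matched coding transcript in GENCODE M21. On this scale of CPM per kilobase, Bhlhe40 stood at 566 ± 21.7 in WT and 633 ± 71.7 in KO (SD, n = 3), rank 54 of 11479 genes with a length in both groups. Irf4 followed at 306 ± 94.9 in WT and 223 ± 48.3 in KO, ranks 133 and 195. Next came Id2 at 138 ± 23.6 and 190 ± 18.2 CPM per kilobase, ranks 304 and 238. These 3 genes thus lay within the top 2.65% of the ranked genes in both groups with this length, and Id2 in WT within the top 3.69% with the longest transcript of any kind and 4.98% with the median coding length.

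Batf was at 119 ± 36.1 CPM per kilobase in WT and 115 ± 25.9 in KO, and Prdm1 at 79.7 ± 14.9 and 74.7 ± 11.1 (SD, n = 3). Id3 was far below, at 2.97 ± 3.51 in WT and 5.93 ± 2.75 in KO, ranks 7968 and 6101. In WT, the ranges of neighbours in this order did not overlap between Bhlhe40 and Irf4, between Irf4 and Id2, or between Prdm1 and Id3, whereas those of Id2 and Batf and those of Batf and Prdm1 did. In KO the only neighbours whose ranges overlapped were Irf4 and Id2, because Irf4 in the library labelled KO1 (168 CPM per kilobase) lay below Id2 in KO2 (211). The order among the 5 upper genes depends on the transcript length used, since with the longest transcript of any kind Id2 came to 89.2 in WT, below Batf.

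**Figure D1:**
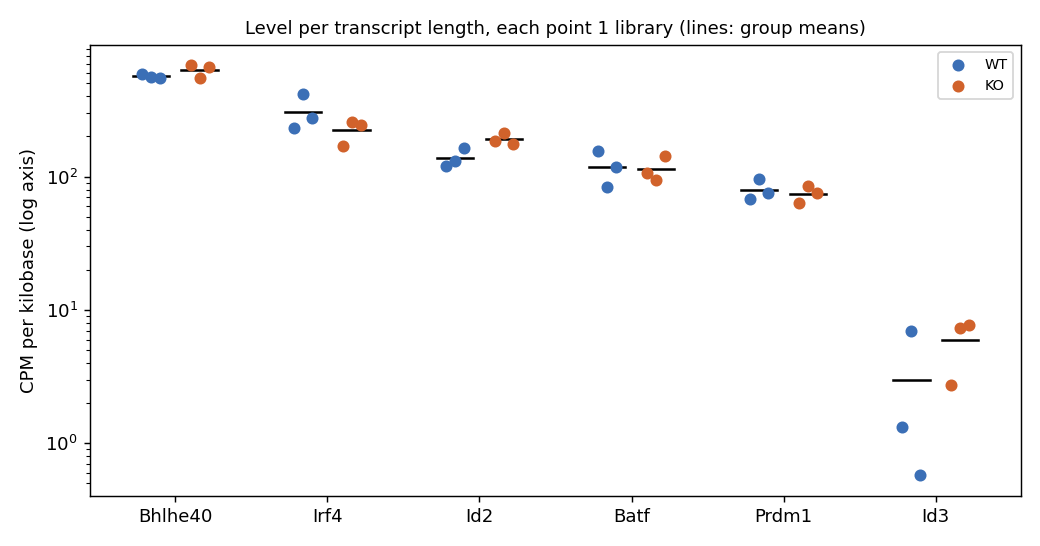
Level of each gene in CPM per kilobase of its longest RefSeq-matched coding transcript (log axis), with 1 point per library, WT in blue and KO in orange, and a line at the mean of each group. Bhlhe40 is highest in both groups, at 566 in WT and 633 in KO, and Id3 lies far below the other 5 genes, at 2.97 and 5.93.

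The first comparison asked whether the 2 genes whose products bind DNA together, Batf and Irf4, differed between WT and KO Treg cells. Batf was close in the group means and Irf4 averaged lower in KO, but each varied as much within a group as between the groups. Batf (Entrez 53314) was at 148 CPM in WT1, 79.3 in WT2 and 113 in WT3, against 102 in the library labelled KO1, 89.9 in KO2 and 137 in KO3. The groups overlapped fully, with the highest and the lowest value both in WT. As a log2 fold change, KO over WT, this was -0.05 (SE 0.28, 95% interval -0.67 to 0.57), which did not pass (edgeR's quasi-likelihood test with Benjamini-Hochberg adjustment over all genes, adjusted p = 0.967). Its sign turned without WT1 (0.18) and without KO2 (0.08), and the pair sorted together, WT1 and the library labelled KO1, differed by -0.55 (log2).

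Irf4 (Entrez 16364) was at 1094 CPM in WT1, 1965 in WT2 and 1320 in WT3, against 802 in the library labelled KO1, 1232 in KO2 and 1159 in KO3. WT2 stood above every other library and the library labelled KO1 below, while the remaining 4 were interleaved. The mean was 1460 ± 452 CPM in WT against 1065 ± 230 CPM in KO (SD, n = 3), a log2 fold change of -0.46 (SE 0.26, 95% interval -1.04 to 0.13), which was not called (edgeR, adjusted p = 0.601). Permuting the 6 libraries in an exact two-sided test gave p = 0.3, and the smallest p that groups of 3 allow is 0.1. With WT2, whose RNA integrity was 5, left out, the log2 fold change was -0.19. Without WT1 it was -0.63 (edgeR, unadjusted p = 0.0447, adjusted p = 0.341). In the pair of WT1 and KO1 alone, which shared a sort, it was -0.45. In bulk RNA, fewer cells with a transcript and less of it per cell cannot be told apart, for Irf4 as for the other genes.

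Prdm1, encoding BLIMP-1, and Bhlhe40 are both tied to the control of Il10, and for neither was a difference by genotype detectable. Prdm1 (Entrez 12142) was at 272 CPM in WT1, 387 in WT2 and 304 in WT3, against 255 in the library labelled KO1, 344 in KO2 and 302 in KO3. Each KO value was within or just below the WT range, and WT2 was again the highest library. The log2 fold change was -0.09 (SE 0.21, 95% interval -0.56 to 0.37; edgeR, adjusted p = 0.917), with a positive sign without WT2 (0.05).

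Bhlhe40 (Entrez 20893) was at 1834 CPM in WT1, 1749 in WT2 and 1701 in WT3, against 2132 in the library labelled KO1, 1717 in KO2 and 2066 in KO3. The 3 WT libraries were close together, 2 KO libraries lay above them, and KO2 lay among them. Its mean of 1761 ± 67.7 CPM in WT against 1972 ± 223 CPM in KO (SD, n = 3) gave a log2 fold change of 0.16 (SE 0.17), which did not pass (edgeR, adjusted p = 0.793). The 95% interval of -0.22 to 0.54 corresponds to a KO level between 0.859 and 1.46 times that of WT, the narrowest bound among the 6 genes. Bhlhe40 also had the smallest spread between libraries of a group (SD of 0.13 in log2 CPM), smaller than in all but 4.02 percent of 5820 genes with a mean of at least 20 CPM, while Batf and Irf4 (both 0.39) were near the median of 0.36.

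**Figure D2:**
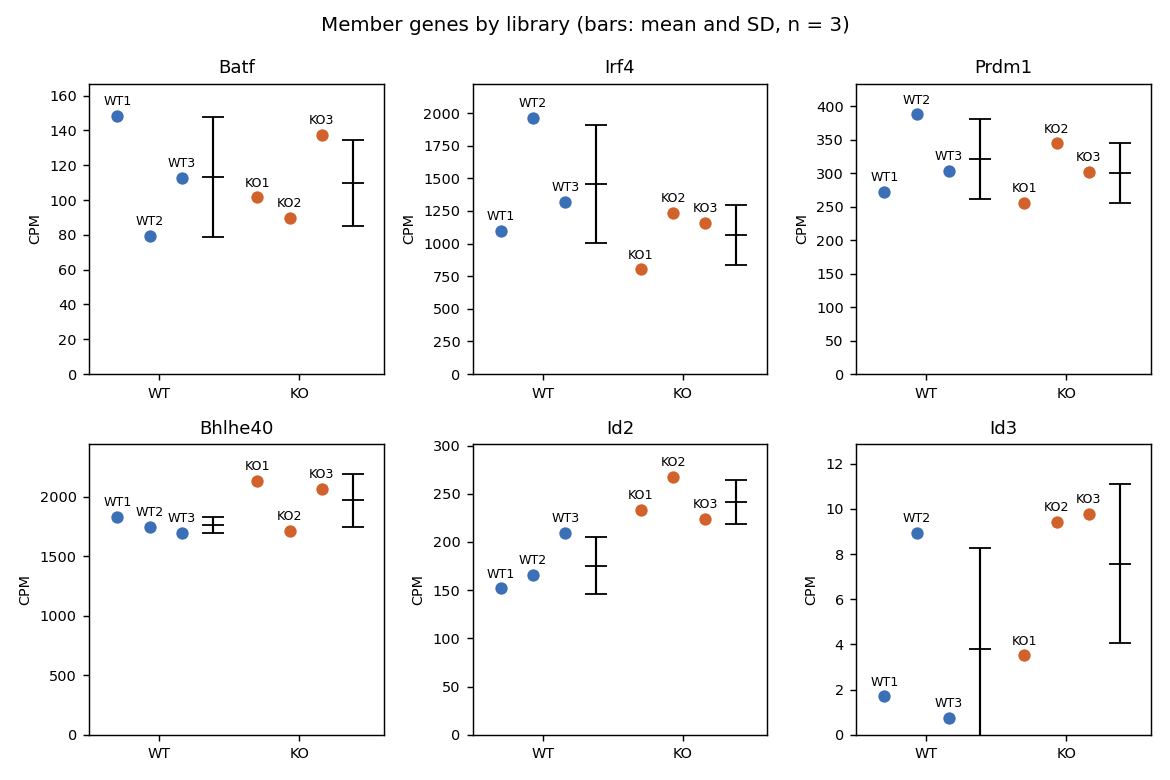
Level of each of the 6 genes in CPM by library, WT in blue and KO in orange, with the group mean and SD (n = 3) beside the points, and with the lower SD limit of Id3 in WT cut at the axis. Id2 is the gene whose groups are separate, at 152 to 209 CPM in WT and 224 to 268 CPM in KO, and WT2 gives the highest Irf4 and Prdm1 and the lowest Batf.

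The second comparison took up the ID genes. Id2 was the gene with the smallest p among the 6 and lay higher in KO, and Id3 was detected at few counts with a large spread. Id2 (Entrez 15902) was at 152 CPM in WT1, 166 in WT2 and 209 in WT3, against 233 in the library labelled KO1, 268 in KO2 and 224 in KO3. All 3 KO libraries lay above all 3 WT libraries, though the gap between WT3 and KO3 was small. The mean was 176 ± 30.0 CPM in WT against 242 ± 23.1 CPM in KO (SD, n = 3), a log2 fold change of 0.46 (SE 0.20, 95% interval 0.01 to 0.91).

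For Id2 the unadjusted p was 0.0451 and the adjusted p = 0.522 by edgeR, and the exact permutation test gave p = 0.1, the smallest possible here. Groups without overlap were found in 17.7% of all tested genes, 9.68% with KO higher, and an unadjusted p under 0.05 in 9.37%, so that 1 member of 6 in each of these classes is not far from what the table as a whole shows. In the pair sorted together, the library labelled KO1 exceeded WT1 in Id2 by 0.62 on the log2 scale. Leaving out single libraries gave log2 fold changes of 0.36 to 0.61. The unadjusted p by edgeR was then 0.0174 without WT3 and between 0.0689 and 0.164 without any other library.

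Id3 (Entrez 15903) had 18 counts in WT1, 87 in WT2 and 13 in WT3, against 79 in the library labelled KO1, 155 in KO2 and 156 in KO3. As CPM these were 1.70, 8.94 and 0.738 in WT and 3.52, 9.43 and 9.78 in KO. WT1 and WT3 were the lowest libraries, but WT2 reached the level of KO2 and KO3. The log2 fold change was 1.01 with an SE of 0.95 and a 95% interval of -1.13 to 3.14 (edgeR, adjusted p = 0.767). Without WT2 it was 2.64, with an unadjusted p of 0.0151 and an adjusted p of 0.378 by edgeR. With all libraries, the interval spans 0.458 to 8.80 times the WT level.

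Of the 6 members, 0 were called by edgeR, 1 (Id2) had an unadjusted p under 0.05, and 0 were called by DESeq2 or by limma-voom. Over all 12557 genes, edgeR called 0.0239% (0.0159% as higher and 0.00796% as lower in KO), and DESeq2 called 1.89% of those to which it gave an adjusted p. The median log2 fold change of the 6 members was 0.06, with 3 positive, against -0.04 over all genes tested. In the authors' deposited table, which called 2.41% of the rows with an adjusted p, none of the 6 passed. In that table the log2 fold change was 0.46 for Id2 with an adjusted p of 0.367 and -0.43 for Irf4 with an adjusted p of 0.603. For Prdm1 the authors' deposited table gave 0.16 with an adjusted p of 0.849, of opposite sign to the value found here.

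**Figure D3:**
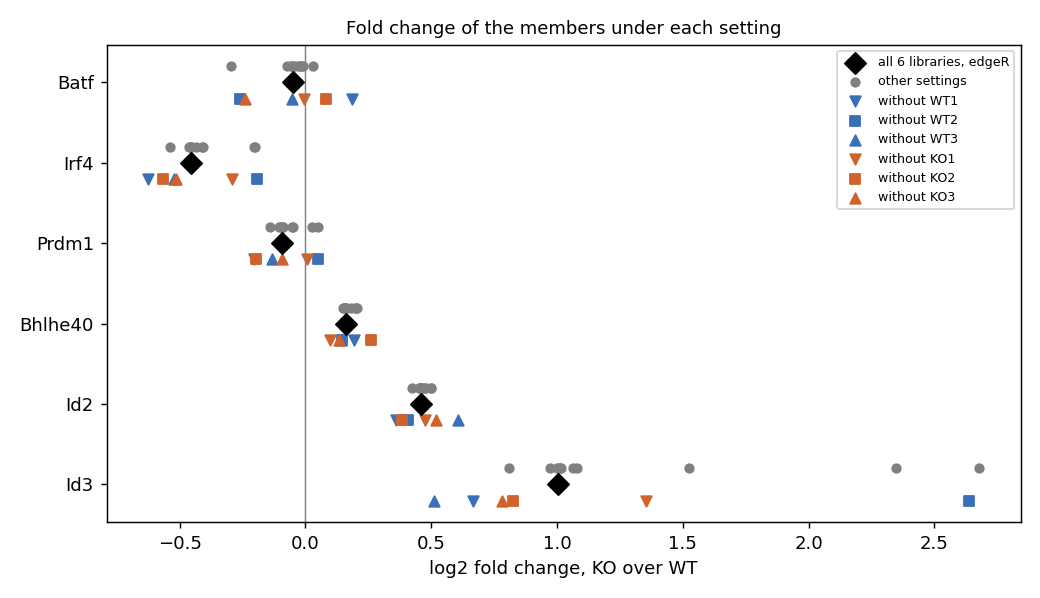
Log2 fold change of KO over WT for each of the 6 genes with all 6 libraries in edgeR (black diamonds), with 1 library left out (blue, a WT library; orange, a KO library) and under the other settings (grey). Batf and Prdm1 fall on both sides of 0, Irf4, Bhlhe40, Id2 and Id3 keep their sign, and of the libraries left out WT2 moves Irf4 (to -0.19) and Id3 (to 2.64) most.

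The E proteins are the binding partners of ID2 and ID3, and 0 of their 4 tested genes (with Id1) passed. Their median log2 fold change was -0.57, with 1 positive. Tcf12, which encodes the E protein HEB and was the most abundant of them, was at 188 CPM in WT1, 182 in WT2 and 167 in WT3, against 126 in the library labelled KO1, 120 in KO2 and 121 in KO3. The groups did not overlap, as in 8.01% of all tested genes in this direction, and the 3 KO libraries were nearly equal. Its log2 fold change was -0.55 (SE 0.18, unadjusted p = 0.0127), and it did not pass over all genes (edgeR, adjusted p = 0.472). Tcf3, which encodes E2A, was at 36.0 ± 23.3 CPM in WT against 38.4 ± 0.853 CPM in KO, and Tcf4, which encodes E2-2, at 37.6 ± 20.5 and 24.8 ± 20.03 CPM (SD, n = 3). Id1 was at 1.72 ± 2.84 and 1.08 ± 0.553 CPM, and Id4 had 0 counts in every library.

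Per kilobase, the summed level of Id2 and Id3 was 2.28, 3.27 and 4.14 times the summed level of Tcf3, Tcf4 and Tcf12 in WT1, WT2 and WT3. The same ratio was 4.83 in the library labelled KO1, 6.58 in KO2 and 5.38 in KO3. ID transcripts thus exceeded E protein transcripts in all 6 libraries, and the groups did not overlap. The log2 difference was 0.82, with an exact permutation p = 0.1, the smallest possible, and 0.35 after adjustment over the 7 ratios computed. The ratio was formed after the values of Id2 had been seen, and it joins the higher Id2 to the lower Tcf12.

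**Figure D4:**
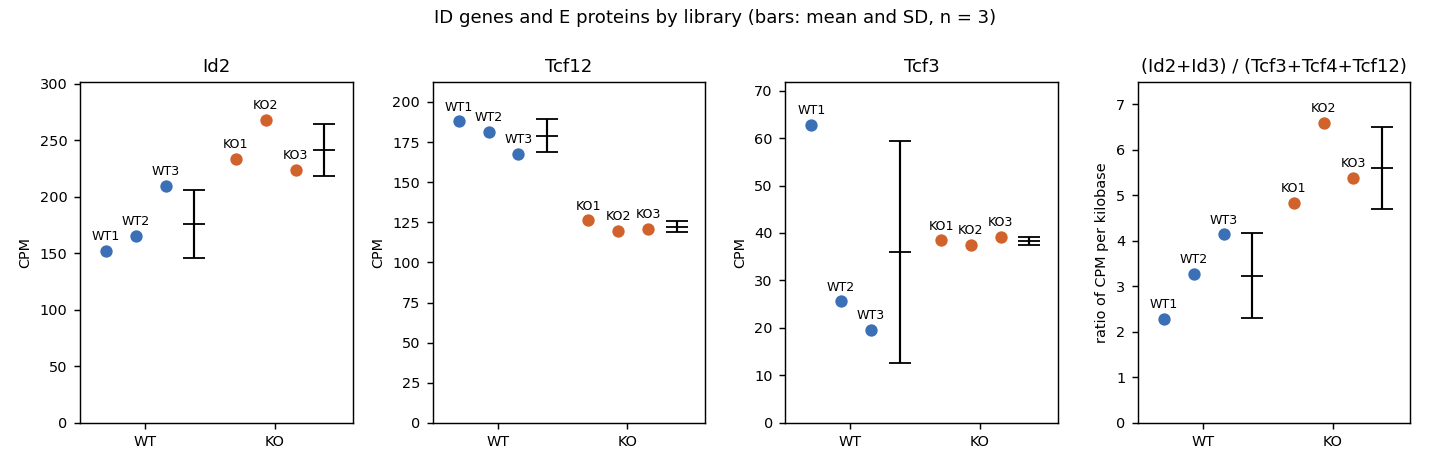
CPM of Id2, Tcf12 and Tcf3, and the ratio of summed ID to summed E protein transcripts in CPM per kilobase, by library, WT in blue and KO in orange, with mean and SD (n = 3). Tcf12 lies at 167 to 188 CPM in WT and 120 to 126 CPM in KO, and the ratio at 2.28 to 4.14 in WT and 4.83 to 6.58 in KO.

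Ratios between the other members held the same order in most libraries. Irf4 exceeded Prdm1 per kilobase in all 6 libraries, by 3.40 times in WT1, 4.29 in WT2 and 3.67 in WT3, against 2.66 in the library labelled KO1, 3.02 in KO2 and 3.24 in KO3. Those groups did not overlap either (log2 difference of -0.35, exact permutation p = 0.1, adjusted p = 0.35 over the 7 ratios). Irf4 exceeded Batf by 1.48 to 4.97 times, with both ends of that range in WT. Id2 exceeded Id3 by 18.6 to 286 times, with the lowest ratio in WT2 and the highest in WT3, the library with the fewest Id3 counts.

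Of the partners of BATF and IRF4, 5 of 8 listed genes were tested and 0 passed. Their median log2 fold change was 0.46, with 4 positive. The JUN genes, whose products form the dimer with BATF, were not all on one side, with Junb and Jund higher on average in KO and Jun lower. Junb was at 561 CPM in WT1, 412 in WT2 and 652 in WT3, against 660 in the library labelled KO1, 779 in KO2 and 790 in KO3, a separation of groups by a narrow margin (log2 fold change 0.46, SE 0.21; edgeR, adjusted p = 0.542). Jund was at 133 ± 33.4 CPM in WT against 201 ± 14.4 CPM in KO (SD, n = 3), also without overlap (log2 fold change 0.60, SE 0.22; edgeR, adjusted p = 0.487). Such a separation, with KO higher, was found in 9.68% of all tested genes. Jun, the most abundant, was at 1178 ± 320 and 948 ± 153 CPM. Summed per kilobase, the 3 JUN genes were at 4.05 to 8.68 times Batf in WT and 6.01 to 9.46 times in KO.

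Irf8, which can take the place of IRF4 beside BATF in other cells, was at 29.8 ± 13.6 CPM in WT against 33.3 ± 11.6 CPM in KO. Batf2 had 0 counts in every library, and Batf3 had none in WT and at most 1.96 CPM in KO. Spib, which did not pass the filter either and is named after its values were seen, was at 24.8 CPM in WT2 and at most 0.608 CPM in any other library. Spi1, encoding the myeloid and B cell factor PU.1 and named after its values were seen, was at 3.12 ± 3.11 and 16.6 ± 3.12 CPM (edgeR, adjusted p = 0.472).

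The corepressors and relatives of BLIMP-1 and BHLHE40 gave 0 calls in 6 tested genes, with a median log2 fold change of -0.18. Ehmt2, a histone methyltransferase recruited by BLIMP-1, was at 59.5 ± 31.2 CPM in WT against 82.8 ± 6.40 CPM in KO, and the demethylase gene Kdm1a at 57.2 ± 4.94 and 54.7 ± 15.3 CPM (SD, n = 3). The deacetylase genes Hdac1 and Hdac2 were at 93.1 ± 15.6 and 75.9 ± 16.03 CPM, and at 34.6 ± 8.26 and 21.99 ± 5.61 CPM. Of the genes that BLIMP-1 is known to repress in lymphocytes, 5 were tested, 0 passed and 0 had a positive log2 fold change (median -0.44). Over all tested genes, 5948 of 12557 were positive. The 5 values ran from -2.86 for Il2, named after its values were seen, to -0.003 for Cxcr5. Il2 had 196 counts in WT3 and at most 30 in any other library. Bcl6, the antagonist of BLIMP-1 in follicular helper T cells, was at 162 ± 36.9 and 130 ± 15.4 CPM, Cxcr5 at 13.5 ± 2.61 and 13.5 ± 3.41 CPM, and Ciita at 23.6 ± 22.7 and 14.4 ± 4.56 CPM. Myc was at 167 ± 43.2 and 123 ± 70.6 CPM, with the library labelled KO1 lowest at 41.9 CPM.

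Genes of the effector state that these factors maintain were compared next, and 0 of 24 passed, with 12 positive and a median log2 fold change of -0.01. The most abundant were Ctla4, an inhibitory receptor, at 2821 ± 357 CPM in WT against 2652 ± 127 CPM in KO, Icos, a costimulatory receptor, at 1950 ± 250 and 1908 ± 214 CPM, Rora, at 1657 ± 253 and 1362 ± 48.3 CPM, and the cytokine gene Il10, at 1299 ± 222 and 1141 ± 70.0 CPM (SD, n = 3). Their log2 fold changes ran from -0.28 to -0.03. Of Rora alone among these 4 the groups did not overlap, with WT at 1446 to 1938 CPM and KO at 1309 to 1404 CPM (edgeR, adjusted p = 0.635). Of all tested genes, 8.01% had groups without overlap and KO lower.

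Among resting and central T cell genes 0 of 12 passed, with 4 positive and a median of -0.24. Foxo1, a factor of the quiescent state, was at 600 ± 189 CPM in WT against 453 ± 19.2 CPM in KO, Foxp1 at 252 ± 92.3 and 208 ± 16.2 CPM, Il7r at 328 ± 40.9 and 356 ± 40.4 CPM, and Satb1 at 148 ± 45.2 and 185 ± 19.4 CPM (SD, n = 3). As with Irf4, WT2 had the highest level of Foxo1 (809 CPM) and of Foxp1 (359 CPM) of the 6 libraries. Summed over the list, effector genes were at 15964 to 17024 CPM in WT and 13984 to 17326 CPM in KO, and resting genes at 1518 to 2226 and 1442 to 1740 CPM.

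T cell receptor signalling raises Irf4 and Batf, and of 10 other genes it induces or activates 0 passed, with 4 positive and a median log2 fold change of -0.05. Rel, the NF-kB subunit c-Rel and a known activator of Irf4, was at 1525 CPM in WT1, 2119 in WT2 and 1458 in WT3, against 1099 in the library labelled KO1, 1445 in KO2 and 1331 in KO3. Like Irf4 and Foxo1, it was highest in WT2 and lowest in the library labelled KO1. Its groups did not overlap, as in 8.01% of all tested genes in this direction (log2 fold change -0.40, SE 0.21, adjusted p = 0.573 by edgeR). A tie between Rel and Irf4 in these libraries was not tested. Nr4a3 was at 1749 ± 43.0 and 1648 ± 481 CPM, Egr1 at 817 ± 206 and 813 ± 37.0 CPM and Nfkb1 at 844 ± 181 and 742 ± 47.1 CPM (SD, n = 3). Nr4a2, named after its values were seen as the 1 gene of this list with an unadjusted p under 0.05, was at 185 ± 18.3 and 126 ± 9.34 CPM (edgeR, adjusted p = 0.487). Over all tested genes the share under 0.05 was 9.37%.

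**Figure D5:**
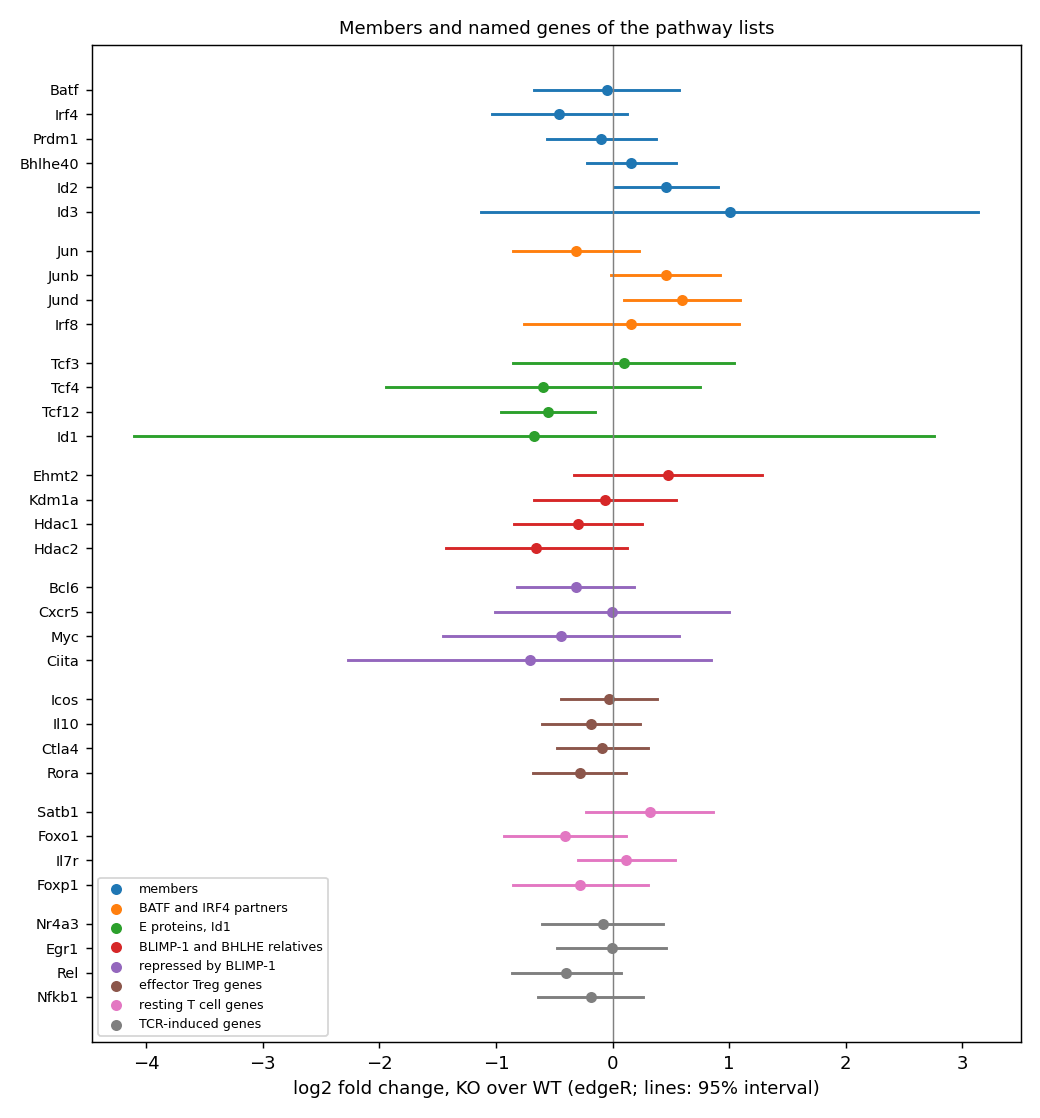
Log2 fold change of KO over WT (points) with its 95% interval from edgeR (lines) for the 6 members and for the most abundant tested genes of each of the other 7 pathway lists, coloured by list. None of the genes shown passed over all genes, and the intervals of Id2, Jund and Tcf12 lie to 1 side of 0, at 0.01 to 0.91, 0.10 to 1.09 and -0.95 to -0.15.

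By the root-mean-square difference between log2 CPM profiles over the 6 libraries, each centred on its own mean, the gene most like Irf4 among 5727 genes was Ppp6r3 (0.05, against a median of 0.49), followed by Sesn3 (0.07). Prex1 and Arfgap1 were closest to Batf (0.09 and 0.11), Pias1 and Zfp326 to Prdm1 (0.04 and 0.05), and Spen and Mafk to Bhlhe40 (0.06 for each). Arfgef2 and Lrch4 were closest to Id2 (0.08 for each). For Id3 the nearest were Mosmo and Tns1, at 0.43 and 0.49 against a median of 1.39 for this gene. Since that median is larger than the one for Irf4, the distances of Id3 cannot be set directly against those of the other members. None of these 12 genes was a member.

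Several members are expressed by other cells of the colon as well, Irf4 and Prdm1 in plasma cells and Id2 in dendritic and innate lymphoid cells. Plasma cell and B cell markers summed to 1803 to 6714 CPM in WT and 2181 to 2621 CPM in KO, mostly Igha (1399 to 5622 CPM in WT) and Jchain, and 0 of 9 tested passed. Irf4 was highest in WT2 and the marker sum in WT3. Markers of macrophages, monocytes and dendritic cells summed to 254 to 357 CPM in WT and 371 to 722 CPM in KO, a separation of groups in the direction of Id2. Of their log2 fold changes 13 of 13 were positive, with 0 passing and 7 with an unadjusted p under 0.05. Over all tested genes, 5948 of 12557 were positive and 9.37% had an unadjusted p under 0.05. The sum of these markers was highest in the library labelled KO1 and Id2 in KO2. The most abundant markers over all 6 libraries were Lyz2, at 59.95 ± 27.6 CPM in WT against 126 ± 77.1 CPM in KO, and Csf1r, at 54.2 ± 14.4 and 65.0 ± 17.2 CPM. The part of these cells in the Id2 difference was not tested.

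Innate lymphoid and NK cell markers summed to 36.3 to 62.8 CPM in WT and 52.0 to 72.5 CPM in KO. The highest means over all libraries were those of Tyrobp and Fcer1g, with Ncr1 at 0 counts in every library and 0 of 5 tested passing. Of the 5 log2 fold changes 3 were positive. Klrb1c and Il22, named after their values were seen, averaged lower in KO (0.251 against 3.12 CPM in WT, and 7.17 against 10.98 CPM). Epithelial markers summed to 20.9 to 54.7 CPM in WT and 72.5 to 163 CPM in KO, where Clca1 (39.9 ± 15.5 CPM) and Fcgbp (33.8 ± 17.3 CPM) led the list, while in WT they averaged 0.948 and 0.0343 CPM, and 1 of 11 tested, Fcgbp, rose (edgeR, adjusted p = 0.0169). Of the 11 log2 fold changes 9 were positive. Epcam and Cdh1, named after their values were seen, averaged lower in KO (6.04 against 11.2 CPM in WT, and 3.45 against 8.85 CPM). Helper T cell cytokine genes summed to 140 to 220 CPM in WT and 115 to 130 CPM in KO, led by Cd40lg and Il17a, with 0 of 6 passing. Stromal and endothelial markers, led by Pecam1 and Col1a1, were at 53.3 to 97.9 and 45.4 to 61.0 CPM, with 0 of 6 passing, and the CD8 T cell markers Cd8a and Cd8b1 together did not exceed 3.96 CPM in any library, with 0 of 1 tested passing. What these cells contribute to the levels of the 6 members was not tested.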

How the data were processed

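RNA from 3 WT and 3 KO pools of sorted colonic Treg cells was amplified (Ovation RNA-Seq System V2) ahead of the NEB library kit, per the labels' protocols. Tools named in the submitters' processing notes, without their roles, are Salmon 1.4.0, fastp 0.20.0, DESeq2 1.34.0 and R 4.1.2. No source used here gives the genome build, the annotation or the strandedness. The deposited table holds an estimated count per gene and library, rounded to whole numbers by the authors, and was read as not normalized. Per the file headers it also holds the authors' log2 fold change, p-value, test score and mean signal. A second table had 6 columns whose names match no sample, and these were not used.

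Rows sharing an Entrez identifier were summed (32161 to 32090). Genes kept by filterByExpr (minimum count 10, total 15) were scaled by TMM and fitted in edgeR 4.0.16 (R 4.3.3) on genotype alone, with a quasi-likelihood test and Benjamini-Hochberg adjustment at 0.05. The fit was tested on simulated data. CPM uses TMM-scaled sizes, where 1 count is worth 0.0445 to 0.103 CPM, and log2 CPM a prior count of 2. SE is the absolute log2 fold change over the square root of F. DESeq2 1.42.0 and limma 3.58.1 were alternatives, beside other scalings, filters, covariates and libraries left out. The p-values and intervals measure the spread between pools. A gene-level count sums all transcripts, and GENCODE lengths need not be those of the authors' annotation.

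The members and the 17 gene lists were chosen with earlier results of these data known, and the 7 ratios after the files were seen. Named genes are the members, the 4 most abundant of each pathway list and 2 of each marker list, any list gene past the threshold, and for likeness the 2 nearest profiles with a mean of at least 20 CPM, without unnamed gene models. The names Zfp683, Trac and Muc2 had no row in the table.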

Additional observations from a re-analysis of the deposited data

How the results depend on the processing

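Over 17 alternatives, 0 of the 6 members were called in any, and Irf4, Bhlhe40, Id2 and Id3 kept their direction in all. The smallest adjusted p was 0.266, for Id3 in limma-voom with quality weights. An unadjusted p under 0.05 arose in 9 of the 17 for Id2, 3 for Irf4, 3 for Id3 and 0 for Batf, Prdm1 and Bhlhe40. Batf turned positive in limma-voom with quality weights (0.031) and without WT1 or KO2, and Prdm1 in limma-voom (0.024), with RNA integrity as a covariate (0.051), without WT2 (0.050) and without KO1 (0.0040). The cause was not tested. With 1 library left out, log2 fold changes ran from -0.26 to 0.18 for Batf, -0.63 to -0.19 for Irf4, -0.20 to 0.05 for Prdm1, 0.10 to 0.26 for Bhlhe40, 0.36 to 0.61 for Id2 and 0.51 to 2.64 for Id3. With RNA integrity in the model, Irf4 was at -0.21 and Id3 at 2.68. Over all genes edgeR called 3 and DESeq2 255, and the other settings 1 to 9. With KO2 and KO3 summed into 1 library, chosen after the data were seen, Id2 was at 0.46 (edgeR, adjusted p = 0.999).

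Replicate numbers were not used as pairs in the main fit, although WT1 and KO1 shared a sort batch. Same-numbered libraries had correlations of deviations of 0.0093, 0.049 and 0.026, and 4 of 6 libraries correlated best with their own number. With 3 libraries per group, these values cannot show whether the numbers mark pairs. With the replicate block the log2 fold changes were -0.03 for Batf, -0.44 for Irf4, -0.09 for Prdm1, 0.16 for Bhlhe40, 0.47 for Id2 and 1.53 for Id3, with 3 genes called in all. Per kilobase, the longest transcript of any kind gave 60.8 in WT and 56.9 in KO for Prdm1 and 89.2 and 123 for Id2, and the median coding transcript 981 and 1099 for Bhlhe40. With each library left out, the log2 difference in the ratio of ID to E protein transcripts ran from 0.59 to 1.02. Its sign could not turn here, since the groups did not overlap in this ratio. Id3 had 508 counts over all 6 libraries and the largest spread between libraries of a group among the 6 members (SD of 1.35 in log2 CPM).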

Other observations

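WT2, the library with an RNA integrity number of 5, held the highest Irf4 (1965 CPM), Prdm1 (387 CPM), Rel (2119 CPM) and Foxo1 (809 CPM) of the 6 libraries and the lowest Batf (79.3 CPM) and Foxp3 (567 CPM). With RNA integrity in the model, the log2 fold change was -0.21 for Irf4 (-0.46 without it), 0.051 for Prdm1 (-0.09 without it) and -0.29 for Batf (-0.05 without it), and since 1 library alone had a low number, RNA integrity cannot be told apart from that library.

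Tnfrsf4, encoding the costimulatory receptor OX40 and named after its values were seen, was the 1 effector gene of 24 with an unadjusted p under 0.05. Over all tested genes the share under 0.05 was 9.37%. It was at 287 CPM in WT1, 223 in WT2 and 356 in WT3, against 305 in the library labelled KO1, 550 in KO2 and 551 in KO3. KO2 and KO3 lay above WT and the library labelled KO1 within its range (edgeR, adjusted p = 0.499). Cd40lg, encoding the CD40 ligand of activated helper T cells, was at 89.2 ± 13.1 CPM in WT against 49.2 ± 19.2 CPM in KO (SD, n = 3). Its groups did not overlap, as in 8.01% of all tested genes in this direction (edgeR, adjusted p = 0.487).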
